A study of Mus musculus with 2 samples.

Results

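The family of miR-15, miR-16, miR-195 and miR-497 was described here from its 6 microRNA (miRNA) genes Mir15a, Mir16-1, Mir15b, Mir16-2, Mir497 and Mir195a, chosen by name out of 2202 annotated mouse miRNA genes. They form 3 clusters of 2 neighbouring genes each, Mir15a with Mir16-1, Mir15b with Mir16-2, and Mir497 with Mir195a. The material was adrenal gland of female B6CASTF1/J mice, a first-generation hybrid strain, aged 25 days, with no treatment or genetic change named. Small RNA below 30 nucleotides was sequenced in 2 libraries, numbered as biological replicates 2 and 1 of 1 group. The labels number the glands separately but give both the same donor identifier. Nothing else shows that the glands came from separate animals, so the spread between libraries may be partly technical. All values are per gene and join the reads of both arms of a hairpin.

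A miRNA is cut from a hairpin precursor and directs silencing of messenger RNAs that pair with its seed, bases 2 to 8 of the mature strand. The family is known for restraining cell division and survival in mammals: its established targets include D-type and E-type cyclins and the anti-apoptotic gene Bcl2. In humans, loss of the Mir15a/Mir16-1 locus is a hallmark of chronic lymphocytic leukaemia. In mouse heart, miR-195 is known for its part in the withdrawal of muscle cells from the cell cycle after birth.

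The 5p strands of the family show what makes it a family, and RefSeq sequences (GRCm38.p6) were found for both arms of all 6 genes. The seed is in capitals in the mature sequences, written 5′ to 3′. Mir16-1 and Mir16-2 give the same mature strand.
miR-15a-5p: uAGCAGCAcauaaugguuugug
miR-16-5p: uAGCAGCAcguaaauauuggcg
miR-15b-5p: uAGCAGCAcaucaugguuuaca
miR-497a-5p: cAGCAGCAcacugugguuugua
miR-195a-5p: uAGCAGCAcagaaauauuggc
All 6 genes had the seed AGCAGCA in the 5p strand. From base 9 on, miR-195a-5p had the same base as miR-16-5p at 11 of 13 positions and differed by G10A and U11G, with miR-16 first and positions counted from the 5′ end. Mature miR-15a-5p and miR-15b-5p shared 18 of 22 positions, and miR-497a-5p and miR-16-5p only 11 of 22. Sequence likeness thus did not follow the clusters, since Mir195a lies beside Mir497, with which it shared 12 of 21 positions. The 3p strands were less alike, with 19.0 to 81.8% of positions shared over 15 pairs, and no 2 of the 6 had the same seed.

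The hairpins of the 2 miR-16 genes show where their reads can be told apart. In each, the 5p and 3p mature strands are in capitals; Mir16-1 lies at chr14:61631880-61631972 on the minus strand and Mir16-2 at chr3:69009902-69009996 on the plus strand.
Mir16-1: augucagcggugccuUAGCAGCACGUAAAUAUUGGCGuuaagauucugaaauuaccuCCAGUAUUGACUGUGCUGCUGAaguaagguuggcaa
Mir16-2: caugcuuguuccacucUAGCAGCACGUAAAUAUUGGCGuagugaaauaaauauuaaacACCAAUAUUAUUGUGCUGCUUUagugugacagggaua
They shared an unbroken stretch of 23 bases, which is the whole 5p strand plus 1 base after it. A read that lies wholly inside that stretch matches both loci. The tables count only reads with a single mapping position, so the counts of Mir16-1 and Mir16-2 leave out such reads and are uncertain as a measure of miR-16. Reads with several positions made up 27.5% of library 2 and 28.4% of library 1, and how many of them were miR-16 was not measured. For Mir15b, Mir497 and Mir195a, the longest stretch shared with each other or with a miR-16 gene was 8 to 12 bases. Mir15a, Mir15b, Mir497 and Mir195a had no run of 20 bases in common with any other annotated miRNA gene.

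In mm10 coordinates, Mir15a (ENSMUSG00000093007.1) is at chr14:61632027-61632110 and lies within an intron of the long noncoding gene Dleu2. Mir16-1 (ENSMUSG00000092995.1) follows it 54 bases away, overlapping an annotated Dleu2 exon. Mir15b (ENSMUSG00000065580.2) is at chr3:69009772-69009835, and Mir16-2 (ENSMUSG00000065606.1) lies 66 bases after it. Both are in an intron of Smc4, which encodes a condensin subunit needed to compact chromosomes in mitosis. Mir497 (ENSMUSG00000105220.1) is at chr11:70234717-70234800, and Mir195a (ENSMUSG00000065411.2), 241 bases on, is at chr11:70235042-70235135. No gene on their own strand contains this last pair in GENCODE M21. Mir497b, annotated on the opposite strand, overlaps Mir497 and had no read of its own in either library.

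Library 2 held 3912280 reads on the strand of miRNA genes and library 1 held 2244073. Levels are normalised read counts (CPM, reads scaled to a total of 1000000 such reads), and 1 read was worth 0.256 CPM in library 2 and 0.446 CPM in library 1. Of markers of other tissues, striated muscle genes summed to 5 and 10 reads and pancreas genes to 4 and 4 reads in libraries 2 and 1. Of the muscle genes, Mir1a-1, Mir1a-2, Mir133a-1 and Mir133a-2 had 0 reads in both libraries. Each has a run of 20 bases found in a further miRNA gene, and reads mapped to several places are not counted. The muscle sum therefore cannot tell whether muscle was absent. Genes of kidney and epithelium were present at a low level, with 3 of 6 detected and 294 reads in library 2 and 219 in library 1. The endocrine genes Mir375 and Mir7b summed to 42104 CPM in library 2 and 41495 CPM in library 1. Most of this was Mir375, with 36561 CPM in library 2 and 37574 CPM in library 1. Mir7b had the higher level in library 2, 5543 CPM against 3921 CPM in library 1. No miRNA that defines the adrenal gland alone was on the list. The libraries differed widely in markers of blood and liver. The 3 erythroid genes summed to 25715 CPM in library 2 and 680 CPM in library 1, and the hepatocyte gene Mir122 had 491 CPM and 5185 CPM.

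All 6 members were detected, with at least 10 reads in each library, as were 337 of the 2202 genes. They held 0.750% of the miRNA reads in library 2 (95% Wilson interval 0.742 to 0.759%) and 0.631% in library 1 (0.621 to 0.641%). Intervals cover counting error only, and no molecular identifiers were named that would tell PCR copies from separate molecules.

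Among the chromosome 14 genes, Mir16-1 had 10510 reads, or 2686 CPM, in library 2 and 2508 reads, or 1118 CPM, in library 1. Its partner Mir15a had 7714 reads, or 1972 CPM, in library 2 and 3167 reads, or 1411 CPM, in library 1. Both were higher in library 2, and Mir16-1 was above Mir15a there but below it in library 1. On chromosome 3, Mir15b had 3533 reads, or 903 CPM, in library 2 and 3121 reads, or 1391 CPM, in library 1. Mir16-2 had 1775 reads, or 454 CPM, in library 2 and 550 reads, or 245 CPM, in library 1. These neighbours moved in opposite directions between the libraries, with Mir15b lower in library 2 and Mir16-2 higher. On chromosome 11, Mir195a had 3376 reads, or 863 CPM, in library 2 and 3331 reads, or 1484 CPM, in library 1. Mir497 had 2437 reads, or 623 CPM, in library 2 and 1482 reads, or 660 CPM, in library 1, the closest match between libraries of the 6 genes.

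**Figure D1:**
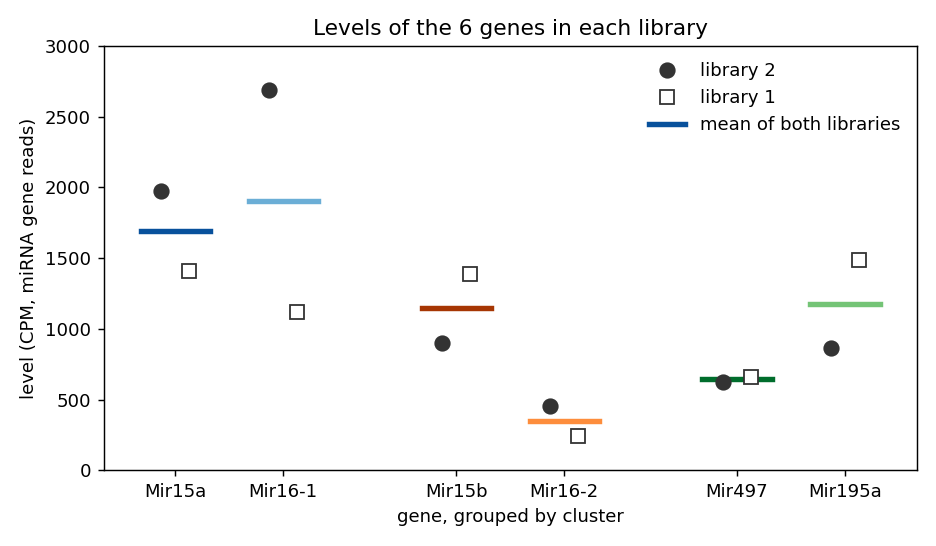
Level of each of the 6 genes in CPM (vertical axis, linear) with genes grouped by cluster; filled circles are library 2, open squares library 1 and lines the mean of both. Mir16-1 spans the widest range, 2686 CPM in library 2 against 1118 CPM in library 1, and Mir16-2 is lowest in both. Both miR-16 genes are counted without reads inside their shared stretch.

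By the mean of both libraries the order was Mir16-1 (1902 ± 1109 CPM), Mir15a (1692 ± 396 CPM), Mir195a (1174 ± 439 CPM), Mir15b (1147 ± 345 CPM), Mir497 (642 ± 26.5 CPM) and Mir16-2 (349 ± 148 CPM; SD, n = 2 each). Among the upper 4 genes, each pair of neighbours in this order overlapped in range and changed places between the libraries. Mir15a was above Mir15b in both libraries, by 1972 against 903 CPM in library 2 and 1411 against 1391 CPM in library 1. At the lower end the order held, with Mir15b above Mir497 and Mir497 above Mir16-2 in both libraries and no overlap in range. Counts of Mir16-1 and Mir16-2 leave out reads inside their shared stretch, so the places of these 2 genes in the order are uncertain. Of the 15 pairs of members, 10 had the same order in both libraries. Mir16-1 ranked 55th and Mir16-2 123rd of the 2202 genes by mean level. The family was therefore in the upper part of the detected genes, whose median was 156 CPM, with 63.5 to 83.7% of detected genes below a given member.

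The chromosome 14 cluster took the largest share of the family's reads in both libraries. It held 62.1% in library 2 (95% Wilson interval 61.5 to 62.7%) and 40.1% in library 1 (39.3 to 40.9%), from 18224 and 5675 reads. The Mir497/Mir195a cluster held 19.8% in library 2 (19.4 to 20.3%) and 34.0% in library 1 (33.2 to 34.8%). The Mir15b/Mir16-2 cluster held 18.1% in library 2 (17.7 to 18.5%) and 25.9% in library 1 (25.2 to 26.7%), so the clusters kept their order in these counts. Reads inside the stretch shared by the miR-16 genes are missing from the clusters with a miR-16 gene, by an amount not measured. Whether they would change the order of the clusters was not tested. In the unstranded column, which set aside the reads of Mir497, the mean share was 24.3% for Mir15b/Mir16-2 and 19.4% for Mir497/Mir195a. In CPM, the Mir15a/Mir16-1 cluster summed to 3594 ± 1506, the Mir497/Mir195a cluster to 1815 ± 466 and the Mir15b/Mir16-2 cluster to 1496 ± 197 (SD, n = 2 each). The ranges of the last 2 overlapped.

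**Figure D2:**
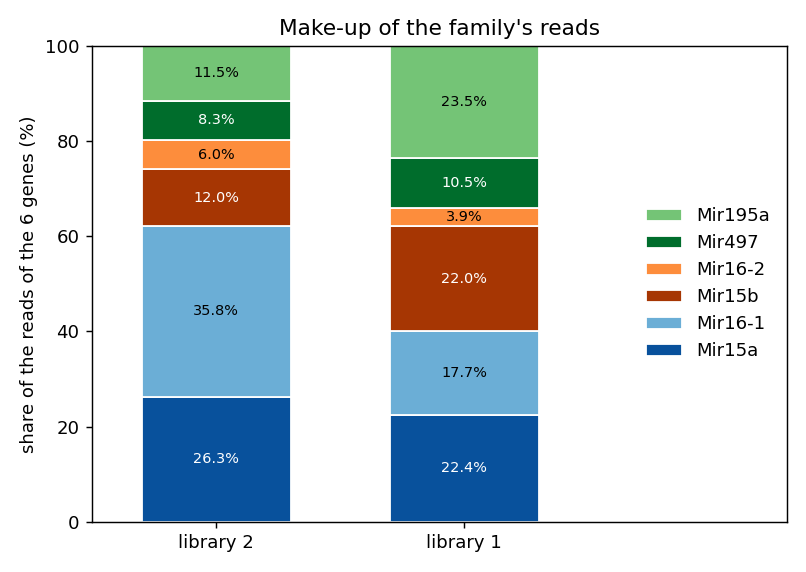
Share of the 6 genes' summed reads held by each gene (vertical axis, percent) in library 2 on the left and library 1 on the right. Mir16-1 holds 35.8% in library 2 and 17.7% in library 1, while Mir195a holds 11.5% and 23.5%.

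Taken across the clusters instead, the 2 miR-16 genes together held 41.9% of the family's reads in library 2 and 21.6% in library 1. Of these assigned reads, 85.6% in library 2 (95% Wilson interval 84.9 to 86.2%) and 82.0% in library 1 (80.6 to 83.3%) were at Mir16-1. The balance between the loci thus moved far less than the sum of both. Since reads inside the shared stretch are in neither count, these shares describe reads assigned to 1 locus.

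The difference between the libraries was tested for every gene with 10 or more reads summed, by a two-sided exact binomial test with Benjamini-Hochberg adjustment and edgeR's TMM scaling. The test compares these 2 libraries and not conditions. Of the 411 genes tested, 58.4% passed an adjusted p of 0.05, with 29.4% higher in library 2 and 29.0% higher in library 1. Of the 6 members, 3 were higher in library 2, 2 were higher in library 1 and 1 did not pass. Requiring a fold of 1.5 as well left 2 members higher in library 2 and 1 higher in library 1, or 3 of 6, against 31.4% of all genes (15.1% and 16.3% by direction). That tally moved with the scaling. It was 3 higher in library 2 and 1 higher in library 1 with DESeq2 size factors, 2 and 2 with library size alone, and 3 and 0 with no filter on low counts. The share of calls that were higher in library 2 was 50.4% over all genes, 42.9% when only library size was used for scaling and 61.7% with no filter on low counts.

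Both miR-16 genes were higher in library 2. Mir16-1 was 2.55-fold higher than in library 1, with a log2 ratio of library 2 over library 1 of 1.35 (95% interval 1.29 to 1.41) and an adjusted binomial p computed as 0. Mir16-2 was 1.96-fold higher (log2 ratio 0.97, 95% interval 0.84 to 1.12; adjusted p = 2.61e-47). Mir15a was 1.48-fold higher (log2 ratio 0.57, adjusted p = 1.03e-80). Lower in library 2 were Mir195a, by 1.62-fold (log2 ratio -0.70, adjusted p = 3.63e-85), and Mir15b, by 1.45-fold (log2 ratio -0.54, adjusted p = 2.28e-50). Mir497 did not pass (log2 ratio 0.00, 95% interval -0.09 to 0.10).

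At this depth a binomial test passes for differences that are ordinary between these libraries. The absolute log2 ratio of Mir16-1 was above that of 90.3% of the 411 tested genes, and that of Mir16-2 above 78.6%. Mir195a stood above 65.5%, Mir15a above 56.2% and Mir15b above 52.8%, in the middle of the field. The median absolute log2 ratio was 0.63 over the 6 members and 0.50 over all tested genes, and the median log2 ratio was 0.28 over the members and -0.07 over all. Among detected genes, the 82 with a run of 20 bases found in a further miRNA gene had a median absolute log2 ratio of 0.55, and the 255 without one had 0.43. The part of such shared sequence in the Mir16-1 and Mir16-2 values was not tested.

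Red blood cells are a known rich source of miR-16 in human blood. Library 2 had the higher level of 2 of the 3 erythroid genes, Mir451a and Mir144, as it had of the miR-16 genes, and the lower level of Mir486. Mir486, with 86 reads in library 2 and 107 in library 1, shares part of its sequence with a further gene, so its count is uncertain. The endothelial gene Mir126a had 121007 CPM in library 2 and 53763 CPM in library 1. Tested smooth muscle and fibroblast genes went both ways. Mir143 was higher in library 2 (log2 ratio 0.66), Mir214 was higher in library 1 (log2 ratio -0.71) and Mir145a did not pass (log2 ratio -0.02). The leukocyte genes summed to 1612 CPM in library 2 and 2126 CPM in library 1, with 1 of 5 higher in library 2 and 3 higher in library 1 (29.4% and 29.0% of all tested genes), and none of the erythroid, endothelial or leukocyte genes was at 0. The part of blood, vessel and liver cells in the family's values was not tested. In whole glands a change in the number of cells of a type cannot be told apart from a change in RNA per cell.

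**Figure D3:**
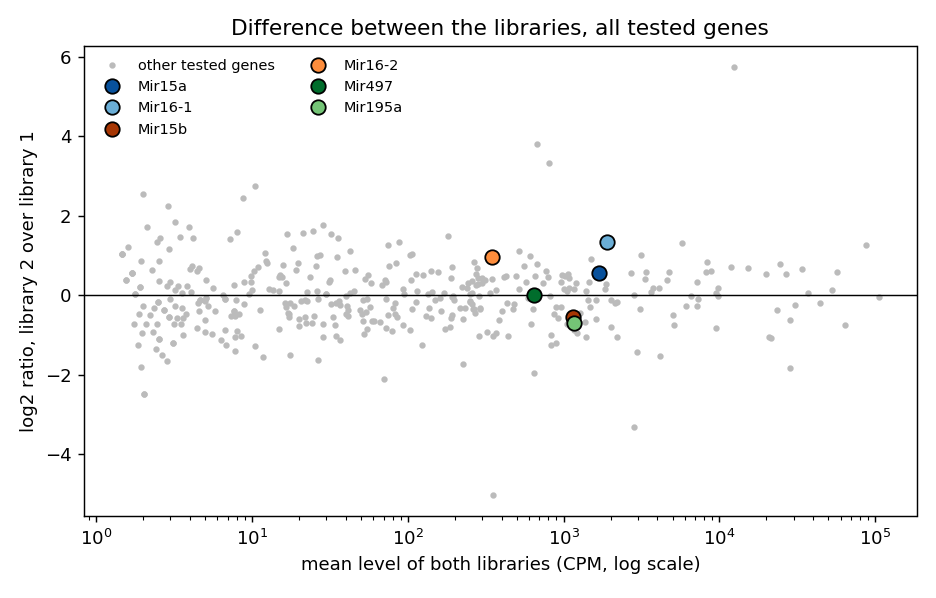
Log2 ratio of library 2 over library 1 (vertical axis) against the mean level in CPM (horizontal axis, log scale) for the 411 tested genes; the 6 members are coloured. Mir16-1 at 1.35 and Mir16-2 at 0.97 lie above the line, Mir15b at -0.54 and Mir195a at -0.70 below it, and Mir497 on it.

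Ratios between neighbours within a cluster need no scaling of the libraries. Where a miR-16 gene is the second of the pair, its count leaves out the reads inside the shared stretch. Such a ratio therefore sets the miR-15 gene against only the reads assigned to that miR-16 locus. Mir15a had 0.734 reads per read of Mir16-1 in library 2 and 1.26 in library 1. On the log2 scale this was -0.45 (95% exact interval -0.49 to -0.40) in library 2 and 0.34 (0.26 to 0.41) in library 1, so the sign turned. For Mir15b over Mir16-2 the ratio was 1.99 in library 2 and 5.67 in library 1, or 0.99 (0.91 to 1.08) and 2.50 (2.37 to 2.64) on the log2 scale. In both clusters the miR-15 gene lost ground to the assigned reads of its miR-16 neighbour in library 2. The change was 1.72-fold on chromosome 14 and 2.85-fold on chromosome 3. The Mir497 to Mir195a ratio was 0.722 in library 2 and 0.445 in library 1, or -0.47 (-0.55 to -0.39) and -1.17 (-1.26 to -1.08) on the log2 scale. Mir195a thus had the higher read count of that pair in both libraries, by a margin that was 1.62-fold smaller in library 2.

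The 3 clusters were set beside the other 105 pairs of adjacent detected miRNA genes that shared a strand and lay at most 10 kb apart. The median absolute log2 difference in level over those pairs was 2.28 in library 2 and 2.13 in library 1. Mir15a and Mir16-1, as well as Mir497 and Mir195a, lay closer than that in both libraries, and Mir15b and Mir16-2 did so in library 2 but not in library 1. Of the other pairs, 16.2% were closer than Mir15a and Mir16-1 in each library. The share closer than Mir497 and Mir195a was 16.2% in library 2 and 33.3% in library 1, and that closer than Mir15b and Mir16-2 was 31.4% and 59.0%. The shift of the ratio between libraries had a median size of 0.49 over the other pairs. It was -1.51 for Mir15b/Mir16-2, larger than in 92.4% of the other pairs. The shifts of -0.78 for Mir15a/Mir16-1 and 0.70 for Mir497/Mir195a were larger than in 70.5% and 65.7% of them. For the clusters with a miR-16 gene, differences and shifts rest on counts without the reads inside the shared stretch and are uncertain to that extent. Some of the other pairs also hold a gene with a run of 20 bases found in a further miRNA gene. Counts of such genes leave out reads mapped to several places. How far this moved the medians and shares of the other pairs was not tested.

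**Figure D4:**
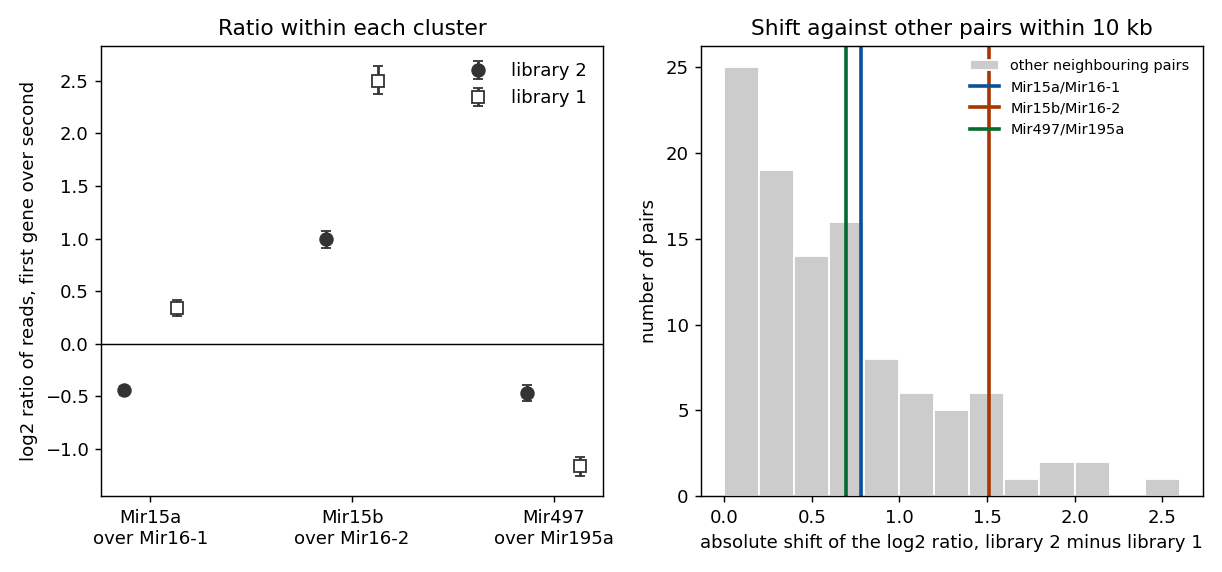
Left, log2 ratio of reads of the first gene over the second in each cluster, with 95% exact intervals from counting error, library 2 as filled circles and library 1 as open squares. Right, absolute shift of that ratio between libraries for 105 other neighbouring pairs (grey bars, number of pairs), with the 3 family clusters as lines at 0.78, 1.51 and 0.70.

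The seed AGCAGCA is not confined to the 6 genes. Of 1738 mature mouse miRNA entries in RefSeq, 11 carried it, from 11 genes, of which 7 were detected. The strand miR-16-5p is entered once for Mir16-1 and once for Mir16-2. The only detected gene with the seed outside the family was Mir322, the mouse counterpart of human miR-424, which lies beside Mir503 on the X chromosome. From base 9 on, miR-322-5p had the same base as miR-15b-5p at 9 of 14 positions, as miR-15a-5p at 8, as miR-497a-5p at 7 and as miR-16-5p at 5. The mature strands are shown with that of miR-503, a relative that differs in the last seed base.
miR-322-5p: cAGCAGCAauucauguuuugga
miR-503-5p: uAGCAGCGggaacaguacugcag
Mir322 had 117833 reads, or 30119 CPM, in library 2 and 41702 reads, or 18583 CPM, in library 1. It was above each member in both libraries and held 80.1% of the reads of genes with the seed in library 2 (95% Wilson interval 79.9 to 80.3%) and 74.7% in library 1 (74.3 to 75.0%). The 6 members made up 19.9% of those reads in library 2 and 25.3% in library 1. Genes with the seed took 3.76% of all miRNA reads in library 2 and 2.49% in library 1. Counts per gene include the 3p strand of Mir322, which has another seed, and the table does not separate the arms. Reads of miR-16-5p set aside as mapped to several places are also absent here, so the family's part is understated by an amount that was not measured.

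**Figure D5:**
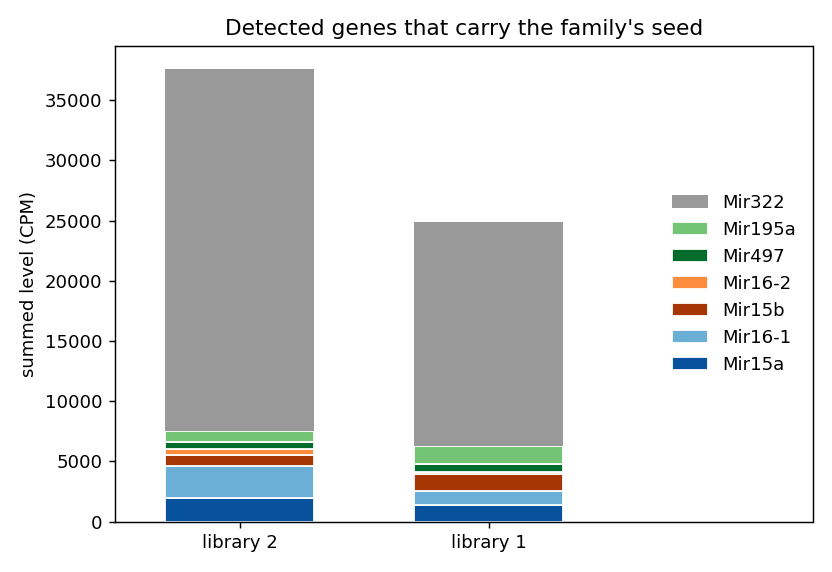
Summed level in CPM (vertical axis) of the 7 detected genes with the seed AGCAGCA, stacked, in library 2 on the left and library 1 on the right. Mir322 accounts for 30119 CPM in library 2 and 18583 CPM in library 1, above the 6 members at the base of each bar.

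Of the 8 genes listed as related, after TMM scaling, Mir322 was 1.72-fold higher in library 2 (log2 ratio 0.78) and Mir503 was 1.26-fold higher in library 1 (log2 ratio -0.34). The other 6, Mir195b, Mir497b, Mir1907, Mir6342, Mir6353 and Mir6419, had 0 or 1 read in each library, within the 3 reads that a count of 0 allows. Mir195b carries the seed and had 0 reads in library 2 and 1 read in library 1.

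Other miRNAs known to restrain cell division went both ways. Of the 9 tested genes of that list, 2 were higher in library 2, 4 were higher in library 1 and 3 did not pass, with a median log2 ratio of -0.06. Over all tested genes 29.4% were higher in library 2, 29.0% were higher in library 1 and the median was -0.07. Mir26a-2 had the widest difference of the list, 32.6-fold higher in library 1 after TMM scaling. It had 77 reads in library 2 and 1540 in library 1, and its sequence is partly shared with a further gene, so that its count is uncertain. Mirlet7b, of the let-7 family, had 46181 CPM in library 2 and 82202 CPM in library 1. Mir34a, a target of the tumour suppressor p53 (Trp53), had 834 CPM in library 2 and 514 CPM in library 1, a 1.72-fold difference after TMM scaling. Mir26b, with 19728 CPM in library 2 and 27071 CPM in library 1, was 1.29-fold higher in library 1 after TMM scaling. Of the 8 tested genes of the Mir17 to Mir92-1 and Mir106b to Mir25 clusters, which promote proliferation, 5 were higher in library 2, 1 was higher in library 1 and 2 did not pass, against the same 29.4% and 29.0% of all tested genes, and the median log2 ratio was 0.37. Mir17 had 3973 CPM in library 2 and 2810 CPM in library 1, a level above that of each family member in both libraries.

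The genes most like Mir16-1, the member with the highest mean level, were found by the largest difference in log2(CPM + 1) over the 2 libraries. Mir15a was the nearest, at 0.45. It was followed by Mir20a of the Mir17 cluster at 0.48, with 1932 CPM in library 2 and 1082 CPM in library 1. Mir361 at 0.63, Mir324 at 0.70 and Mir106b at 0.77 came next. With 2 libraries this measure reflects a like level more than a like pattern.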

How the data were processed

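The authors deposited 1 table of raw read counts per miRNA gene for each library, with no normalization or pooling. Reads were mapped to mm10, per the labels, and the text deposited with the tables names GENCODE M21. For the aligner, counter and trimming, names and versions were not given in the sources used here. Each table holds 3 columns of counts without a header, taken from the layout and the totals as an unstranded column and 2 stranded ones. The stranded column with reads on the gene's strand was used.

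Library sizes are the reads of that column at miRNA genes. Left out were the rows without a gene: unmapped (27.8% of library 2, 33.8% of library 1), mapped to several places, and outside miRNA genes (9.53% and 9.57%). Library 2 held 11132685 reads in all and library 1 held 7938596. With 1 group there was no coefficient for edgeR's quasi-likelihood test, so an exact binomial test conditional on the sum was used, with TMM scaling from edgeR 4.0.16 (R 4.3.3) and 0.5 read added to counts in log2 ratios. Ratio intervals are exact binomial (Clopper-Pearson) and shares have Wilson intervals, both at 95%. DESeq2 1.42.0 size factors were an alternative. Python 3.11.15, scipy 1.17.1 and pandas 2.3.3 were used, and the test was tried on simulated data. The most similar genes were the 5 nearest detected ones. Named genes were the members, detected genes of the lists, similar genes, neighbours within 10 kb and markers. The related genes at 0 or 1 read are named outside this rule, after their values were seen. Members and lists were chosen with earlier results of these data known. Sequences are from RefSeq; the genome was not searched for further copies. The Mir15a hairpin is not analysed here.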

Additional observations from a re-analysis of the deposited data

How the results depend on the processing

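No paired analysis was possible because both libraries belong to the same group. Of 64 alternative values other than those that leave out a replicate, 53 kept their direction and call, or moved by less than the SD between libraries (counts of genes by less than 1.5-fold). With all reads of a library as the denominator, the family's share was 0.221%, and the levels were 546 CPM for Mir15a, 630 for Mir16-1, 355 for Mir15b, 114 for Mir16-2, 203 for Mir497 and 361 for Mir195a, by construction. Without Mir16-1 and Mir16-2 the family held 0.465% of the miRNA reads. In the unstranded column Mir497 had 0 CPM, since its reads overlap Mir497b on the other strand and were set aside as ambiguous; no ratio of Mir497 could be computed there. With no filter on low counts, which moved all log2 ratios by 0.17, Mir497 had a log2 ratio of 0.17 and passed (adjusted binomial p = 0.0017); over the other alternatives its adjusted p was 0.0929 to 1. The log2 ratios of the other 5 members kept their sign and passed under each scaling and filter. The number of genes called was 129 with a fold of 1.5 required. The mean log2 ratio within Mir15a/Mir16-1 was -0.45 to 0.34 when a replicate was left out, so its sign rests on which library is used. For levels and shares, leaving out a replicate gives the value of the other library, which with 2 libraries always lies within the SD and tests nothing. Leaving out a replicate gave no ratio between libraries. For the 5 members that passed, the counting interval excluded a log2 ratio of 0, while for Mir497 it included it. The number of libraries limits the precision.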
